A study of Mus musculus with 9 samples.

Results

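The genes described here are 34 named genes of the DNA damage response and DNA repair, taken by symbol from the 53280 gene symbols in the count table. They cover homologous recombination (12 genes), the Fanconi anaemia pathway (4), base excision and mismatch repair (2), the checkpoint kinase gene Chek1 (1), activation of the kinase ATR (3), break sensing and signalling (7) and end joining (5). The classes follow textbook role, and members and classes were chosen with earlier results of these data known. In the first, 19 genes were grouped as S-phase-linked: repair that copies from a sister chromatid or serves replication forks, together with Chek1. A group of 12 was called cycle-independent: end joining and break sensing or signalling, which work throughout the cell cycle. The 3 genes of ATR activation, Atr, Atrip and Topbp1, also serve replication forks but were held apart. The S-phase-linked counts leave them out. The study compared neural retina of mouse pups at postnatal day 4 that carried no functional copy of Opn4 (Opn4KO), the gene of the photopigment melanopsin, with retina of wildtype pups (Opn4WT). Both genotypes came as littermates from matings of Opn4 heterozygotes, received no treatment other than standard lighting of about 300 lux, and were collected 6 to 7 h after the lights came on. Each sample was 1 pool of 4 retinas from 2 animals, and there were 5 knockout and 4 wildtype pools. The strain, the sex of the pups, the litters in each pool and the structure of the knockout allele are unstated in the labels.

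Homologous recombination repairs a double-strand break by copying an intact sister chromatid, so it is used mainly once DNA has been replicated. The Fanconi anaemia pathway removes links between the strands of DNA that stop a replication fork, and the kinases ATR and CHK1 hold the cell cycle when forks stall. End joining needs no copy and can rejoin breaks at any stage, and ATM with its partners senses breaks at any stage. The mouse retina at this age still holds dividing progenitor cells beside cells that have left the cell cycle, and most rods are born around birth.

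The 9 libraries held 65.5 M to 86.1 M counts, and the members' counts ran from 258 per pool for Fancb to 18201 for Trp53bp1. Levels below are CPM, counts scaled to a common library size with TMM, a correction for library composition, and they compare pools within a gene, not genes with each other. Opn4 itself was at 1.07, 1.82, 1.15, 1.42 and 1.35 CPM in knockout pools 1 to 5 and at 11.8, 11.4, 12.03 and 11.6 CPM in wildtype pools 1 to 4, so that every library matched its label. On the log2 scale it differed by −3.10 (SE 0.14, edgeR adjusted p = 1.28e-07). Summed lens and red blood cell transcripts did not overlap between the genotypes, and some pools stood further apart. The summed level of 13 lens genes was 25.1 and 20.95 CPM in knockout pools 1 and 2, 11.5 to 12.5 CPM in the other 3 knockout pools and 9.63 to 11.2 CPM in the wildtype pools. Among them Cryaa, a lens crystallin, was at 4.65 and 3.28 CPM in knockout pools 1 and 2, at 0.0939 to 0.737 CPM in the others and at 0.0812 to 0.124 CPM in wildtype pools. Summed red blood cell transcripts were at 73.98 to 99.6 CPM in knockout pools and at 161, 111, 337 and 205 CPM in wildtype pools 1 to 4, highest in wildtype pool 3.

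All 34 members passed the filter on low counts. With the edgeR quasi-likelihood test adjusted over all 21150 tested genes, 15 of the 34 fell in the knockout and none rose, and 19 did not pass the threshold of an adjusted p of 0.05. Over all tested genes, 2.25% fell and 1.34% rose by the same rule. Without adjustment, 17 members had an edgeR p under 0.05, as did 16.5% of all tested genes. The knockout and wildtype ranges did not overlap for 15 members, each lower in the knockout, where 4.37% of all genes separated in that direction and 3.92% in the other. Of the 19 S-phase-linked members, 13 fell, and each of the 19 had a negative fold change, from −0.88 to −0.04 with a median of −0.48. Of the 12 cycle-independent members, 1 fell, 5 fold changes were negative and 7 positive, and the median was 0.03. Of the 3 ATR genes, which also serve forks, 1 fell, 2 fold changes were negative and 1 positive, and the median was −0.11. The median over all tested genes was 0.0012. The members and classes were chosen with earlier results of these data known, so these counts are no independent support for a split. In bulk tissue, fewer cells of a type and less RNA per cell cannot be told apart.

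**Figure D1:**
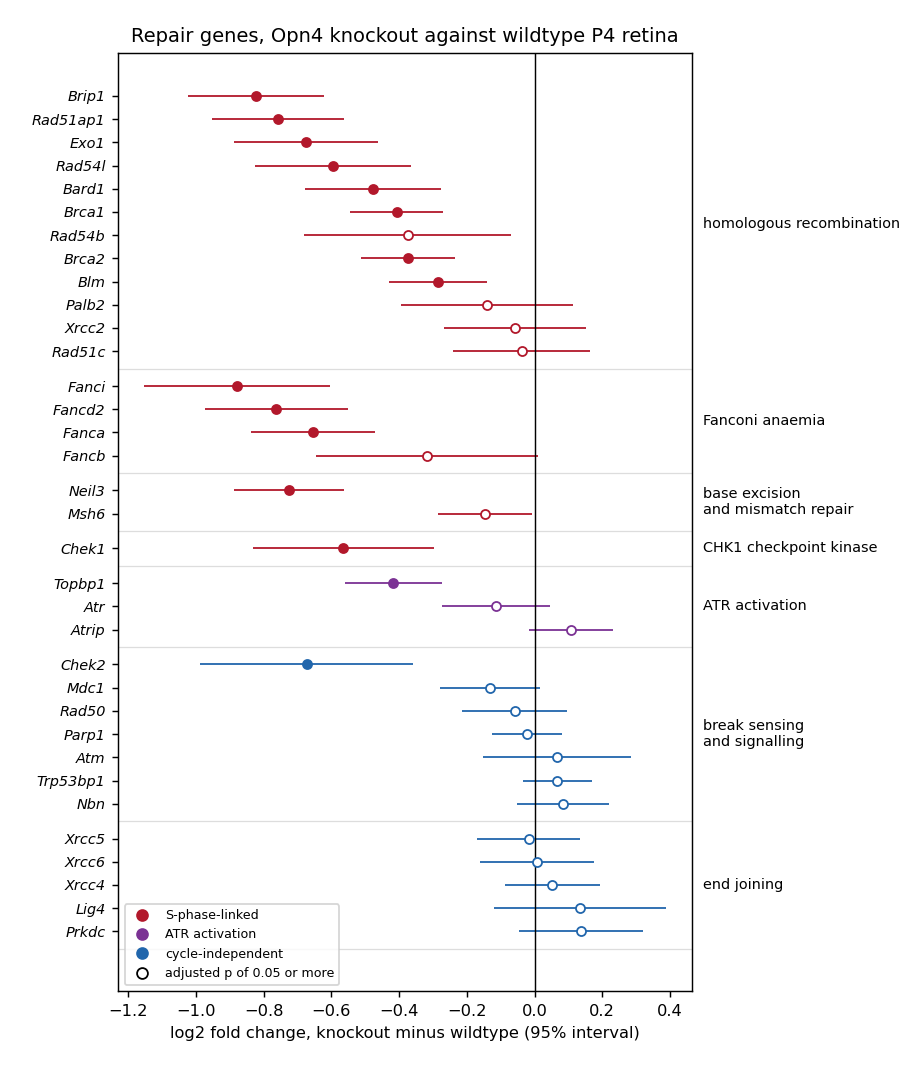
Log2 fold change of each of the 34 genes, knockout minus wildtype, with its 95% confidence interval from edgeR; filled points passed an adjusted p of 0.05, open points did not, and colours give the 3 classes. The S-phase-linked genes lie at or left of −0.04, and all cycle-independent genes but Chek2 lie between −0.13 and 0.14.

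The promoters of the members were searched for short words. The RefSeq promoter table (GRCm38.p6, 250 bases before to 50 after the start) held 27 of the 34 members. The word TTCCCGC with its variants TTCGCGC and also TTGCCGC and also TTGGCGC, searched on either strand, are core forms of the site of E2F, the factor family that drives S-phase genes. At least 1 of these 4 words stood in 11 of 15 S-phase-linked promoters (73.3%) and in 6 of 9 cycle-independent ones (66.7%), against 10.9% of the 27025 genes in the table. Of the members that fell, 10 of 13 held one (76.9%), and of those not called 8 of 14 (57.1%). No test of a relation between the word and the fold changes was made. The median GC content was 57.3% in the S-phase-linked, 63.0% in the cycle-independent and 52.7% in all promoters. The CCAAT box, CCAAT on either strand, was in 9 of 15 and 5 of 9 (60.0% and 55.6%, all genes 41.1%). The CHR words TTTGAA and TTCGAA of genes that peak in G2 were in 2 of 15 and none of 9 (all genes 21.7%). Neil3, Fanca and Rad54l fell and held no E2F word, and Neil3 had 1 CHR word. The S-phase-linked genes Rad51c, Fancb and Msh6 did not pass and each held at least 1 E2F word, while Palb2 did not pass and held none. All these words are matches of letters and not shown sites. The sequences below all hold an E2F word, so they do not show the promoters without one. The first 3 sequences are those of S-phase-linked genes with large fold changes (Brip1, a helicase of recombination, Rad51ap1, a strand pairing factor, and Fanci of the Fanconi clamp). The fourth is that of Chek2, the cycle-independent gene that fell, and the last is that of the end joining gene Xrcc4, which did not pass. Each is written 5′ to 3′ on the gene's strand, with the E2F word in capitals (in the reverse orientation in the first 4). They lie at chr11:86201144-86201443 (minus strand), chr6:126939538-126939837 (minus), chr7:79392088-79392387 (plus), chr5:110839733-110840032 (plus) and chr13:90089559-90089858 (minus).
Brip1: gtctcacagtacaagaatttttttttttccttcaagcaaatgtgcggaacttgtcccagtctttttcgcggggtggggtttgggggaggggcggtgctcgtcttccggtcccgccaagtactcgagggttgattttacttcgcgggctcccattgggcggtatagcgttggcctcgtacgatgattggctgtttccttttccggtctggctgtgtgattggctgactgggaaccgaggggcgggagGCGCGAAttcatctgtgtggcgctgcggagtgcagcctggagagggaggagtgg
Rad51ap1: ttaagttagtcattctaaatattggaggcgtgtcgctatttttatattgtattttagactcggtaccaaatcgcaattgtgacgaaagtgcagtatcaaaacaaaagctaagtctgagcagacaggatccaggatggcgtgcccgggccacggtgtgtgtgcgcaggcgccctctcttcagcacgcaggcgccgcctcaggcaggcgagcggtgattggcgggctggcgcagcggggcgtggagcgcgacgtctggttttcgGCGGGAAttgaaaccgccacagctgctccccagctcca
Fanci: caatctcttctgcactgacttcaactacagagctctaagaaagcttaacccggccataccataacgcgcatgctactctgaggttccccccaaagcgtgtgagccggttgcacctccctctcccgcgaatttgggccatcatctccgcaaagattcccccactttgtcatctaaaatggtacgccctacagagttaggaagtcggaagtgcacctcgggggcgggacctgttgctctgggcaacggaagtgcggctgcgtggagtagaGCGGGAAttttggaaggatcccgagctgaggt
Chek2: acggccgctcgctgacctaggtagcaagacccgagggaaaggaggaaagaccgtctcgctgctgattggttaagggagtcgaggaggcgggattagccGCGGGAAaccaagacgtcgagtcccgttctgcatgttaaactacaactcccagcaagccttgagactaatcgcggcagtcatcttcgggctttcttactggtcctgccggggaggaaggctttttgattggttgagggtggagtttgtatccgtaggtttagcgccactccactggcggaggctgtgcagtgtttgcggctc
Xrcc4: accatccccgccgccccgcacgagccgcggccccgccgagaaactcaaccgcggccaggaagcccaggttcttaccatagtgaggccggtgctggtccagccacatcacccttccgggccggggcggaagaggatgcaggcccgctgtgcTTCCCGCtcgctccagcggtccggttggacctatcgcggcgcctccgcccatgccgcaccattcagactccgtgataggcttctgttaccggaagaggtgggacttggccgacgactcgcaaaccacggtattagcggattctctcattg

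Of the 12 homologous recombination genes, 8 fell: Brip1, Rad51ap1, Exo1, Rad54l, Bard1, Brca1, Brca2 and Blm. The median log2 fold change of the 12 was −0.39. The 3 with the smallest adjusted p were Brip1, Rad51ap1 and Exo1. Brip1 (chromosome 11, 86058138 to 86201193, minus strand, GRCm38) encodes a helicase that binds BRCA1. It was at 5.999, 5.15, 5.64, 6.31 and 6.30 CPM in the knockout pools and at 11.4, 10.1, 9.55 and 10.6 CPM in the wildtype pools. Every knockout pool was below every wildtype pool, and the highest knockout pool was at 6.31 against 9.55 CPM in the lowest wildtype pool. The means were 5.88 ± 0.490 (SD, n = 5) and 10.4 ± 0.782 CPM (SD, n = 4), the knockout 56.5% of the wildtype, a log2 fold change of −0.82 (SE 0.09, edgeR adjusted p = 0.000299).

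Rad51ap1 (chromosome 6, 126923050 to 126939587, minus strand) encodes a protein that stimulates strand pairing during recombination. Its levels were 10.5, 9.80, 8.81, 10.6 and 12.2 CPM in the knockout pools and 17.8, 16.3, 18.6 and 17.6 CPM in the wildtype pools. The groups did not overlap, and the knockout mean of 10.4 ± 1.24 CPM (SD, n = 5) was 59.1% of the wildtype mean of 17.6 ± 0.965 (SD, n = 4). This gave −0.76 as the log2 fold change (SE 0.09, edgeR adjusted p = 0.000424). Exo1 (chromosome 1, 175880581 to 175913489, plus strand) encodes an exonuclease that trims broken ends before pairing and also acts in mismatch repair. It was at 5.07, 4.76, 5.92, 5.37 and 6.03 CPM in the knockout pools and at 8.97, 8.90, 7.82 and 8.98 CPM in the wildtype pools. The ranges were again apart, with wildtype pool 3 below the other 3 wildtype pools, and Exo1 was at −0.67 on the log2 scale (SE 0.10, edgeR adjusted p = 0.00177).

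The other 5 recombination genes that fell had smaller fold changes. Rad54l, the gene of a motor protein of recombination, went from 19.1 ± 2.72 (SD, n = 4) to 12.6 ± 1.47 CPM (SD, n = 5), a log2 fold change of −0.60 with an edgeR adjusted p of 0.00619. Brca1 and its partner gene Bard1, whose proteins form 1 ubiquitin ligase, changed by −0.41 and −0.48 on the log2 scale (edgeR adjusted p = 0.00267 and 0.0106). Brca1 was at 21.8 ± 1.36 CPM in the knockout (SD, n = 5) and 28.9 ± 1.47 CPM in the wildtype (SD, n = 4). Brca2, which acts at the strand pairing step, changed by −0.37 (edgeR adjusted p = 0.00514). Blm, the Bloom helicase gene, changed by −0.28 with an edgeR adjusted p of 0.0333. Its call was lost when any 1 of 6 pools was left out (knockout pools 2, 3, 4 or 5, wildtype pools 1 or 2), with adjusted p up to 0.0880. The 4 recombination genes that did not pass were Rad54b (−0.37, edgeR adjusted p = 0.195), Palb2, which bridges BRCA1 and BRCA2 (−0.14, 0.620), and Xrcc2 (−0.06, 0.838) and Rad51c (−0.04, 0.901). The 95% intervals of Xrcc2 and Rad51c ran from −0.27 to 0.15 and from −0.24 to 0.16. Both lower bounds lay above the point estimates of the 8 called recombination genes, the closest being Blm at −0.28. The interval of Blm, from −0.43 to −0.14, overlapped both, and no difference between these genes was tested.

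Of the 4 Fanconi anaemia genes, 3 fell, Fancd2, Fanca and Fanci, and the median of the 4 log2 fold changes was −0.71. The 13 further tested genes of this pathway, described below, had a median of 0.0036, with 6 fold changes negative and 7 positive. FANCD2 and FANCI form the clamp that marks a stalled fork, and FANCA belongs to the core complex that attaches ubiquitin to it. Fancd2 (chromosome 6, 113531682 to 113597017, plus strand) was at 7.70, 7.398, 7.01, 8.85 and 7.90 CPM in the knockout pools and at 12.7, 14.5, 11.3 and 14.3 CPM in the wildtype pools. Fanci (chromosome 7, 79391929 to 79450264, plus strand) was at 6.67, 6.38, 8.47, 9.46 and 9.87 CPM in the knockout pools and at 14.3, 15.98, 13.99 and 15.8 CPM in the wildtype pools. Neither gene's groups overlapped, and knockout pools 1 and 2 held the lowest Fanci levels. Fancd2 changed by −0.76 (SE 0.10, edgeR adjusted p = 0.000732), the knockout mean being 58.9% of the wildtype mean. Fanci had the most negative fold change of the 34 genes, −0.88 (SE 0.13, edgeR adjusted p = 0.00171), with means of 8.17 ± 1.59 (SD, n = 5) and 15.02 ± 1.03 CPM (SD, n = 4). Without knockout pools 1 and 2, the pools with the raised lens transcripts, Fanci was at −0.70 (edgeR adjusted p = 0.00194). Fanca (chromosome 8, 123268300 to 123318576, minus strand) was at 10.7, 9.14, 11.01, 11.2 and 10.7 CPM against 16.03, 16.9, 14.9 and 18.6 CPM. Its groups were also apart, at a log2 fold change of −0.65 (SE 0.08, edgeR adjusted p = 0.000812). Fancb, a core complex gene on the X chromosome with the fewest counts of the 34, was at 4.30 ± 0.389 (SD, n = 5) and 5.36 ± 1.29 CPM (SD, n = 4). Its fold change of −0.32 did not pass (edgeR adjusted p = 0.322), and its wildtype pools spread from 4.24 to 6.83 CPM.

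Neil3 and Msh6 stand for base excision and mismatch repair. NEIL3 is a DNA glycosylase that also unhooks some crosslinks at replication forks, and MSH6 is part of the complex that recognises mispaired bases behind the fork. Neil3 (chromosome 8, 53586867 to 53639065, minus strand) was at 16.5, 14.9, 15.7, 17.3 and 15.5 CPM in the knockout pools and at 27.6, 28.3, 22.8 and 27.2 CPM in the wildtype pools. All knockout pools were below all wildtype pools, and the knockout mean was 60.5% of the wildtype mean. Its log2 fold change of −0.73 (SE 0.07) had the smallest edgeR adjusted p of the 34 genes, 0.000217. Msh6 was at 47.1 ± 2.47 (SD, n = 5) and 52.1 ± 4.78 CPM (SD, n = 4), and its fold change of −0.15, with a 95% interval from −0.28 to −0.01, did not pass after adjustment (edgeR adjusted p = 0.278).

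Chek1, the gene of the kinase that ATR activates, fell, and so did 1 of the 3 ATR genes. Chek1 (chromosome 9, 36708482 to 36727065, minus strand) was at 5.01, 6.54, 7.04, 7.87 and 7.67 CPM in the knockout pools and at 10.98, 10.6, 9.45 and 9.34 CPM in the wildtype pools. The groups did not overlap, and knockout pool 1 was the lowest. Chek1 was at −0.56 on the log2 scale (SE 0.12, edgeR adjusted p = 0.0229). The call was lost without knockout pool 2, wildtype pool 1 or wildtype pool 2, where the adjusted p reached 0.0814. Topbp1 (chromosome 9, 103305215 to 103350428, plus strand) encodes an activator of ATR that also takes part in starting replication. Topbp1 was at 61.8, 57.5, 66.7, 67.9 and 73.4 CPM in the knockout and at 84.4, 88.4, 82.6 and 94.3 CPM in the wildtype pools. The groups were apart, the means were 65.5 ± 6.07 (SD, n = 5) and 87.4 ± 5.18 CPM (SD, n = 4), and Topbp1 was at −0.42 on the log2 scale (SE 0.07, edgeR adjusted p = 0.00303). The kinase gene Atr and its partner Atrip, which brings ATR to single-stranded DNA, did not pass. Atr was at −0.11 (edgeR adjusted p = 0.495) and Atrip at 0.11 (edgeR adjusted p = 0.378), and both had knockout ranges that overlapped the wildtype range.

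**Figure D2:**
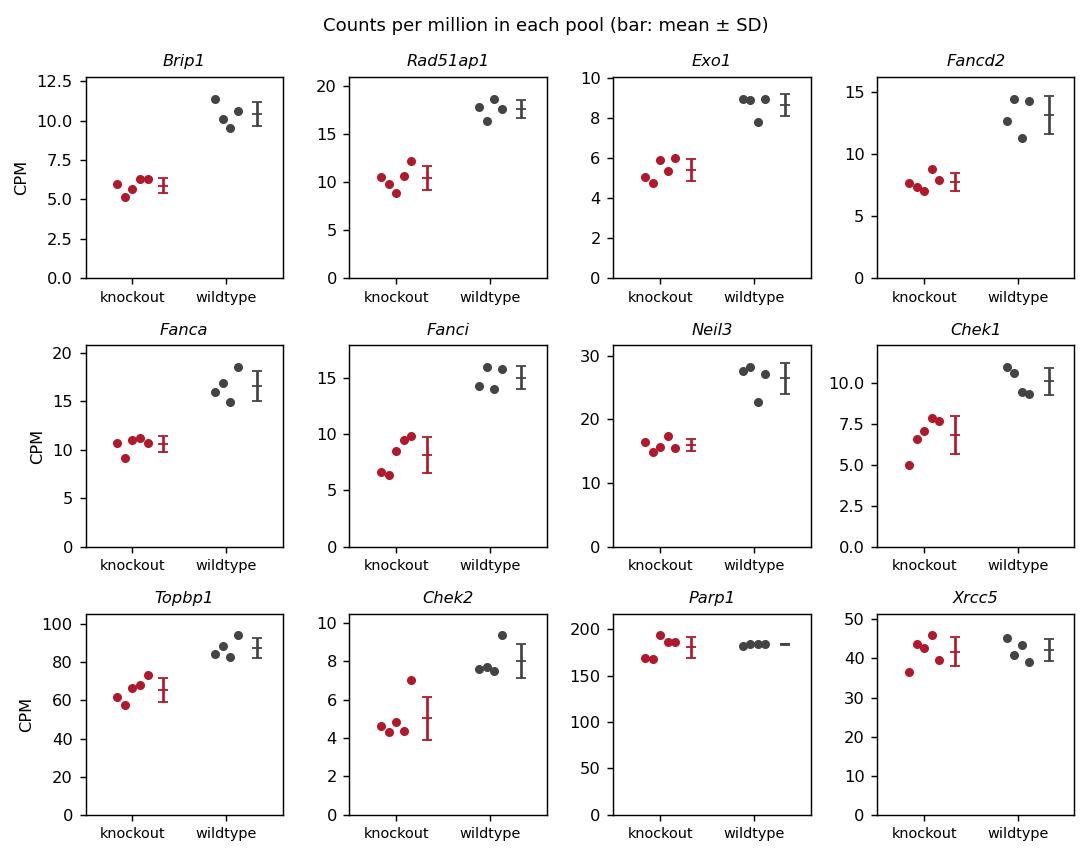
CPM of 12 genes in each pool, knockout (5 pools) beside wildtype (4 pools), with the group mean and SD drawn to the right of each group's points and axes that start at 0. For the 10 genes that fell every knockout point lies below every wildtype point, and for Parp1 and Xrcc5 the points overlap.

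Among the 7 genes of break sensing and signalling, Chek2 fell and 6 did not pass. CHK2 is the kinase that ATM activates. The printed promoter of its gene holds 1 E2F word, but so did 6 of the 9 cycle-independent genes with a promoter, Chek2 included. Chek2 (chromosome 5, 110839979 to 110874145, plus strand) was at 4.60, 4.31, 4.84, 4.39 and 7.01 CPM in the knockout pools and at 7.58, 7.70, 7.48 and 9.35 CPM in the wildtype pools. The groups did not overlap, but knockout pool 5, at 7.01 CPM, was close to the lowest wildtype pool at 7.48 CPM. Chek2 was at −0.67 on the log2 scale (SE 0.15, edgeR adjusted p = 0.0210), and it no longer passed when knockout pool 2 or 4 or wildtype pool 4 was left out, with adjusted p up to 0.0794. The most abundant of the others in counts were Trp53bp1, which protects broken ends from trimming, and Parp1, the main enzyme that marks breaks with poly(ADP-ribose). Trp53bp1 was at 217 ± 6.12 CPM in the knockout (SD, n = 5) and 207 ± 13.1 CPM in the wildtype (SD, n = 4), a log2 fold change of 0.07 (edgeR adjusted p = 0.534). Parp1 was at 181 ± 11.5 (SD, n = 5) and 183 ± 0.867 CPM (SD, n = 4), a fold change of −0.02 (edgeR adjusted p = 0.875). Its 95% interval ran from −0.13 to 0.08. Atm, the central kinase of the break response, was at 0.07, Nbn and Rad50 of the end-binding MRN complex at 0.08 and −0.06, and the adaptor gene Mdc1 at −0.13. None of these 4 passed, and the 95% intervals of the 6 uncalled genes lay between −0.28 and 0.29.

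None of the 5 end joining genes passed with edgeR in either direction, and none had an unadjusted p under 0.05. Over all tested genes, 3.59% passed and 16.5% had such a p, so that a count of 0 among 5 genes lies near the background. Their log2 fold changes were −0.02 for Xrcc5 (Ku80) and 0.01 for Xrcc6 (Ku70), which cap the broken ends, 0.14 for Prkdc, the kinase that the Ku proteins recruit, and 0.05 for Xrcc4 and 0.13 for Lig4, which seal the break. The median was 0.05, and the 95% intervals ran from −0.17 to 0.39 at their widest. Xrcc4 was at 19.6, 21.5, 18.3, 18.2 and 18.8 CPM in the knockout and at 18.8, 18.7, 18.9 and 18.1 CPM in the wildtype pools. The knockout and wildtype ranges overlapped for Xrcc4. The values of these pools do not exclude a change within a gene's own interval.

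**Figure D3:**
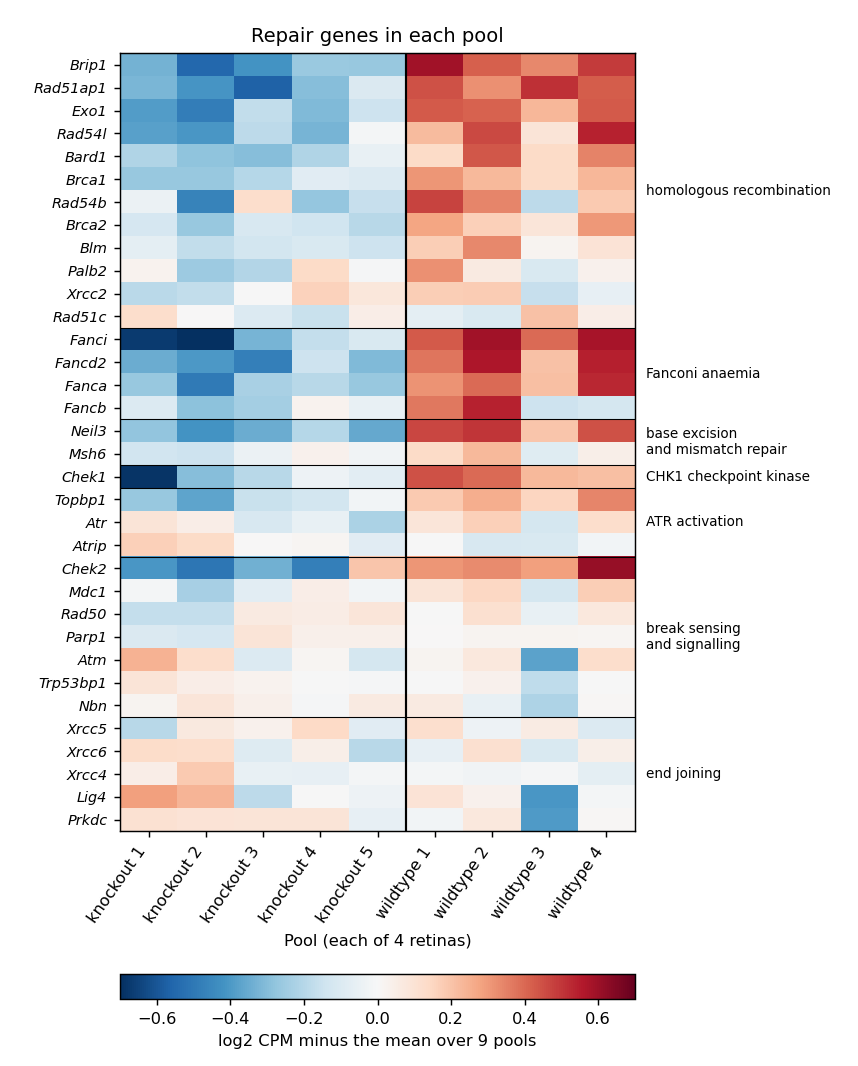
Log2 CPM of each of the 34 genes in each pool, relative to the gene's mean over the 9 pools, with rows ordered by role and columns by pool. The recombination, Fanconi, Neil3 and Chek1 rows are mostly lower in the 5 knockout columns and higher in the 4 wildtype columns, and most end joining rows show no such split.

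The same values were averaged over each class in each pool, which adds no separate support for a split between the 2 classes. The mean log2 CPM of the 19 S-phase-linked genes, relative to all pools, was −0.24, −0.34, −0.22, −0.13 and −0.12 in knockout pools 1 to 5 and 0.32, 0.34, 0.12 and 0.28 in wildtype pools 1 to 4. For the 12 cycle-independent genes the same values were 0.00, −0.01, −0.04, −0.01 and −0.01 in the knockout and 0.05, 0.07, −0.12 and 0.07 in the wildtype. The first class was separate between genotypes, and the second overlapped, with wildtype pool 3 below the 8 others. The S-phase-linked level minus the cycle-independent level, which takes out a shift common to both classes within a pool, was −0.34 to −0.11 in knockout pools and 0.21 to 0.27 in wildtype pools. Wildtype pool 3 was the lowest wildtype pool for 26 of the 34 members, and it also held the most red blood cell transcripts. The part of red blood cell transcripts in the values of that pool was not tested. Knockout pool 2 was the lowest knockout pool for 16 members.

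Markers of dividing cells moved with the S-phase-linked genes. All 16 S-phase marker genes fell in the knockout (median log2 fold change −0.54), and so did all 14 markers of G2 and mitosis (median −0.63). Pcna, the sliding clamp of the replication fork, was at 153 ± 11.8 CPM (SD, n = 5) against 224 ± 10.4 CPM (SD, n = 4), a log2 fold change of −0.55 (edgeR adjusted p = 0.000217). The level of the S-phase markers was −0.35, −0.35, −0.20, −0.23 and −0.10 in the knockout pools and 0.27, 0.31, 0.30 and 0.35 in the wildtype pools, on the scale used for the repair classes. The median fold change of the 19 S-phase-linked repair genes, −0.48, was thus near that of the S-phase markers, and no test of a difference between the lists was made. Of 11 rod genes, 9 rose, where 1.34% of all tested genes did. On the same scale the rod level was 0.51, 0.48, 0.16, 0.15 and −0.11 in knockout pools 1 to 5. It was −0.32, −0.20, −0.41 and −0.28 in wildtype pools 1 to 4. Summed microglial transcripts were at 123 to 137 CPM in knockout pools and at 122 to 150 CPM in wildtype pools. The part of cell cycle, rod, lens and red blood cell transcripts in the repair values was not tested. Without knockout pools 1 and 2, 11 members fell, all among the 15, where 1.65% of all genes fell: 10 were S-phase-linked, none was cycle-independent, and the class medians were −0.43 and 0.00064. The 4 calls lost were Bard1, Blm, Chek1 and Chek2 (edgeR adjusted p = 0.0573, 0.0927, 0.0516 and 0.117). Without wildtype pool 3, 15 members fell, 13 of them S-phase-linked, where 1.95% of all genes fell.

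**Figure D4:**
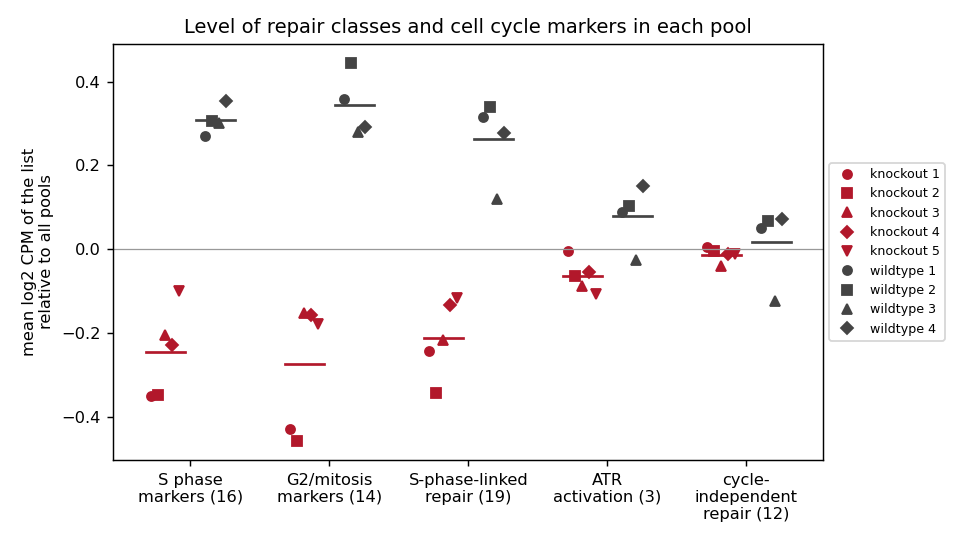
Mean log2 CPM of each gene list relative to all pools, 1 point per pool, for the 3 repair classes and for S-phase and G2 and mitosis markers. Knockout and wildtype points separate for the S-phase-linked genes and both marker lists and overlap for the cycle-independent genes.

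Levels between genes were compared in TPM, an abundance per transcript length, summed over the transcripts of each symbol. The deposited values did not share 1 total: they summed to between 953963 (knockout pool 1) and 1083980 (wildtype pool 3) per pool, so comparisons between pools carry that difference. In the wildtype the S-phase-linked genes had a median of 10.6 TPM and a range from 3.31 to 31.6 TPM, and the cycle-independent genes a median of 20.4 TPM and a range from 4.02 to 108 TPM. Trp53bp1 was the most abundant at 108 ± 10.1 TPM (SD, n = 4), followed by Parp1 at 95.2 ± 5.14 and Topbp1 at 42.9 ± 3.59 TPM. Neil3, at 31.6 ± 2.50 TPM (SD, n = 4), was the most abundant S-phase-linked gene, and it was at 18.2 ± 1.30 TPM in the knockout (SD, n = 5). Fancb, Bard1, Prkdc and Brip1 were the lowest in wildtype, at 3.31, 3.35, 4.02 and 4.27 TPM. In the knockout the class medians were 7.93 TPM for the S-phase-linked and 19.4 TPM for the cycle-independent genes.

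Tested on these values with limma, on log2(TPM + 0.5), which understates the change of low genes, 7 of 34 members fell and none rose, where 1.54% of the 15296 genes tested fell and 0.621% rose. The 7 were Brca1, Brca2, Rad51ap1, Rad54b, Fanci, Neil3 and Topbp1, so that 6 were shared with the 15 of the count test and Rad54b was added. On the TPM scale all 19 S-phase-linked genes had negative fold changes (median −0.44), and of the 12 cycle-independent genes 4 were negative and 8 positive (median 0.06), none past the threshold. In the authors' deposited table of their own comparison, 7 members had a q-value under 0.05 and a negative coefficient, and none had a positive one, where 0.815% of the genes in that table fell. These were Brca2, Bard1, Rad54b, Fanca, Fanci, Neil3 and Topbp1 in the authors' deposited table. The smallest q there was that of Neil3, 9.65e-07, at −0.71 after conversion to the log2 scale in the authors' deposited table. Neil3, Brca2, Fanci and Topbp1 were called in all 3 tests, which share the same 9 libraries.

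**Figure D5:**
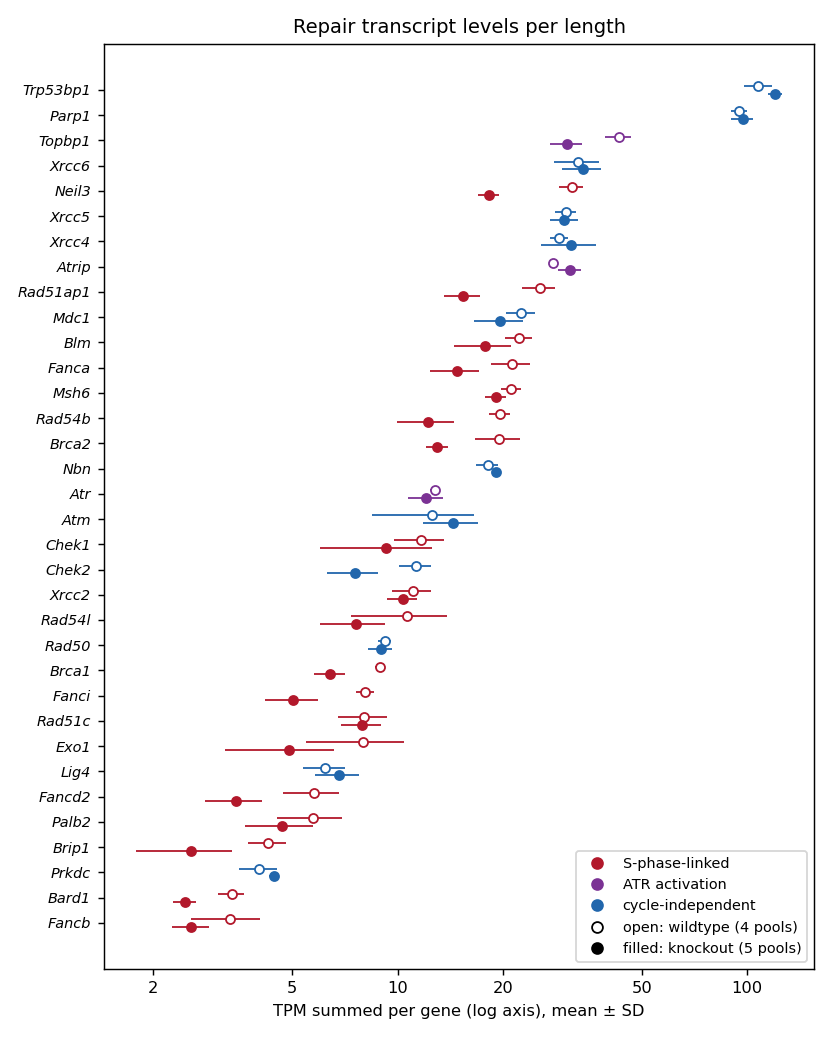
Mean TPM per gene with its SD on a log axis, wildtype open (4 pools) and knockout filled (5 pools), ordered by the wildtype level. Trp53bp1, at 108 TPM, and Parp1, at 95.2 TPM in wildtype, are the highest, and Neil3 is the highest of the S-phase-linked genes.

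Among 120 further tested genes of the same pathways, 18 fell and none rose, where 2.25% and 1.34% of all tested genes did, and their median log2 fold change was −0.05. In homologous recombination 7 of 29 fell, Fignl1 among them (−0.65, edgeR adjusted p = 0.000299), and the median of the 29 was −0.13. In the Fanconi pathway 2 of 13 fell, the enzymes that add and remove ubiquitin on FANCD2: Ube2t (−0.49, edgeR adjusted p = 0.0187) and Usp1 (−0.46, edgeR adjusted p = 0.000299). The median of the 13 was 0.0036. In base excision repair 4 of 21 fell, led by Ung, the uracil glycosylase gene (−0.76, edgeR adjusted p = 0.000812), and Lig1, the ligase of the lagging strand (−0.44, edgeR adjusted p = 0.00362). Of 20 checkpoint and signalling genes 5 fell, led by the fork genes Tipin (−0.45, edgeR adjusted p = 0.00120) and Clspn (−0.66, edgeR adjusted p = 0.00177). None of 6 mismatch repair, 17 nucleotide excision repair, 6 end joining and 8 translesion synthesis genes passed with edgeR in either direction, with 1, 3, 1 and 1 of them at an unadjusted p under 0.05, shares near the 16.5% over all tested genes.

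Some of these genes share exons with a neighbour, and no source used here says whether the counting used strand. On the opposite strand, 15.95% of the exonic bases of Fanci overlap Polg, 15.4% of those of Rad54l overlap Lrrc41, 15.04% of those of Trp53bp1 overlap Tubgcp4 and 10.5% of those of Fanca overlap Zfp276. On the same strand, 35.8% of the exonic bases of Rad54b belong also to Fsbp and 16.04% of those of Atrip to Trex1, so the Rad54b and Atrip values are uncertain. None of the 6 neighbours was called, and their log2 fold changes ran from −0.15 to 0.18.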

How the data were processed

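The authors deposited whole-number counts per gene symbol, a TPM table per transcript (an abundance signal, summed here per symbol) and their sleuth comparison, with p-values, q-values, a coefficient on the natural log scale and its standard error, entered here as a score. Per the submitters' processing notes, reads of 150 bases were trimmed with Trimmomatic 0.39 and quantified with kallisto 0.46.1 on GRCm38, and sleuth 0.30.8 made the comparison. No label or header names the program that wrote the count table, and the count totals lie above the average read depth in the series' design text. The deposited TPM values were entered as a signal because how they were rescaled is not given. A count split between overlapping genes or near-identical copies depends on that step.

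Counts were tested with edgeR 4.0.16 in R 4.3.3 (filterByExpr, TMM scaling, quasi-likelihood test, 2-sided, Benjamini-Hochberg over all 21150 genes tested, threshold 0.05), with all 9 pools and no covariates. The 5 knockout and 4 wildtype pools came from separate animals, so p-values measure the spread between pools of 2 animals. TPM values were tested with limma 3.58.1 on log2(TPM + 0.5) for genes of at least 1 TPM in 4 pools. Exon overlaps came from GENCODE M21, near-identical transcripts from BLAST 2.17.0, and promoters from RefSeq. The edgeR procedure was tested on simulated data. Alternatives were DESeq2 1.42.0, other size factors, filters and pseudocounts, each pool left out, and the replicate number as a block; the same pools without the block were added after seeing the data. The members, the 2 classes and all lists were chosen with earlier results of these data known. All members could be named, with values in every pool for the 3 called genes with the smallest adjusted p in each role, and in each other list the 2 called genes with the smallest adjusted p. Xrcc4, given in every pool, was chosen after its values were seen. Of 121 other listed repair genes, 1 was not matched. All value columns of the tables were used (0 left out). Some genes that this rule or the marker lists would name are not reported here.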

Additional observations from a re-analysis of the deposited data

Results flagged for a closer look

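In 6 of 74 groups of 4 or 5 pools, 1 pool lay far from the others by Dixon's 95% criterion, which chance meets in about 1 in 20 groups. Wildtype pool 3 was low for Exo1 (7.82 CPM) and for the level of the 12 cycle-independent genes (−0.124 on the log2 scale relative to all pools). Knockout pool 2 was low for Fanca (9.14 CPM). For Chek2, knockout pool 5 (7.01 CPM) and wildtype pool 4 (9.35 CPM) each lay above the rest of their group. Knockout pool 5 was low for Prkdc (30.1 CPM), an end joining gene whose fold change did not pass.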

How the results depend on the processing

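The 15 lower members were the same genes with RLE size factors, DESeq2, no low-count filter or a minimum mean of 1 CPM; over all genes DESeq2 called 826 lower and edgeR 476. With each single pool left out, 12 to 15 members fell, 11 to 13 S-phase-linked and 0 to 1 cycle-independent, and the ATR median ran from −0.17 (without wildtype pool 3) to −0.075. Without knockout pools 1 and 2 no cycle-independent gene fell and the ATR median was −0.20. On TPM with pseudocounts of 0.5, 0.1 and 1, 7 members fell, 6 of them S-phase-linked, and 0 cycle-independent (235, 238 and 236 genes in all); without a TPM filter 4, 3 and 0 (148 genes). The cause was not tested. The replicate numbers did not pair the pools: same-number correlations ran from −0.031 to 0.006, and 0 of 8 pools correlated best with their own number. With the replicate block 14 members fell, as in the same 8 pools without it (12 S-phase-linked in both). Signs reversed only for uncalled genes. Xrcc6 was −0.0025 without the filter, Parp1 was 0.028 on TPM at each of the 4 settings, and Rad51c, Atm and Xrcc6 were 0.029, −0.034 and −0.027 without wildtype pool 3. Without knockout pools 1 and 2, Xrcc6 was −0.083, Parp1 0.037, Xrcc5 0.014, Atm −0.043, Xrcc2 0.040, Rad50 0.028, Lig4 −0.013 and Xrcc4 −0.016. With single pools left out, Xrcc6 ran from −0.027 to 0.050, Parp1 from −0.052 to 0.0028, Xrcc5 from −0.056 to 0.027, Atm from −0.034 to 0.12 and Rad51c from −0.083 to 0.029.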
